A study of Mus musculus with 2 samples.

Results

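The 3 Nr4a genes (Nr4a1, Nr4a2 and Nr4a3) were followed across the cell types of subcutaneous B16F10 melanoma tumours, as 3 of the 27635 genes in a single-cell expression table. They were chosen by name, and their counts were read in the 11318 of 12016 cell barcodes with at least 500 genes and at most 25% of counts from mitochondrial genes. B16F10 is a mouse melanoma cell line, so the melanoma cells were a transplanted line and the other cells belonged to the host mice. Cells were taken on day 14 after transplantation by positive selection for CD3, and wild-type and Nr4a knockout T cells were labelled with hashtag antibodies and run as 1 pooled capture on the BD Rhapsody system with TAS-Seq amplification. The series title names deletion of Nr4a1 and Nr4a2. The sources used here do not say in which cells or by what allele the genes were deleted, nor which hashtag marks which genotype.

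Nr4a1 (Nur77), Nr4a2 (Nurr1) and Nr4a3 (Nor1) are orphan nuclear receptors: transcription factors with the fold of hormone receptors but no room for a classical ligand, so that their activity follows mainly from how much of them is made. They are immediate early genes, transcribed within minutes of a stimulus without new protein synthesis. In T cells antigen receptor signalling through NFAT and other factors induces all 3, and they are known for promoting tolerance, regulatory T cell maintenance and the exhausted state of T cells in tumours. In macrophages and other myeloid cells they are induced by inflammatory signals.

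Nr4a1 (ENSMUSG00000023034.7) lies on chromosome 15 at 101254269 to 101274795 on the plus strand, Nr4a2 (ENSMUSG00000026826.13) on chromosome 2 at 57106830 to 57124003 on the minus strand, and Nr4a3 (ENSMUSG00000028341.9) on chromosome 4 at 48045153 to 48086447 on the plus strand (GRCm38, GENCODE M21). All are protein-coding. No stretch of 30 bases was shared between the annotated coding transcripts of any pair of them, so reads of that length from one gene had no identical match in another.

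The bases just before the 3 start sites are shown because all 3 windows hold the same short motif. Whether it has a part in the detection of the genes together, described further on, was not tested. The sequences are from RefSeq (GRCm38.p6), 5′ to 3′ on the strand of the gene, and capitals mark CGTCA on either strand, the core of the cAMP response element bound by CREB, CREM and ATF factors. The Nr4a1 window is chr15:101266596-101266845, plus strand, the Nr4a2 window chr2:57124004-57124253, minus strand, and the Nr4a3 window chr4:48045055-48045152, plus strand. The Nr4a1 window lies within the gene as GENCODE draws it, in no annotated exon. The Nr4a3 stretch stops at the first annotated exon in GENCODE, which begins upstream of the RefSeq start.
Nr4a1: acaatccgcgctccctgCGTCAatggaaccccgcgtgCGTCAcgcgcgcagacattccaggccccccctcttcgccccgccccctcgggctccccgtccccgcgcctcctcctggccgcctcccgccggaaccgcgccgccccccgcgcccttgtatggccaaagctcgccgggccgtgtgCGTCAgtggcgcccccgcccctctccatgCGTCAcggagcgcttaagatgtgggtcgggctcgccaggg
Nr4a2: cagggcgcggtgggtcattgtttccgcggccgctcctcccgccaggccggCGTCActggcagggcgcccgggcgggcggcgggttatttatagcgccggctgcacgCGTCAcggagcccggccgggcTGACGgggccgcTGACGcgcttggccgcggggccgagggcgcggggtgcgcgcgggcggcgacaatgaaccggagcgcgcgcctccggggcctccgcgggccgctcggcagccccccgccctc
Nr4a3: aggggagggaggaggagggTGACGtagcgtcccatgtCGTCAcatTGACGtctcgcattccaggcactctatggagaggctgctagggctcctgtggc
Over the full 250 bases before the RefSeq start, each of the 3 genes held 4 copies of CGTCA. Of 32544 promoter windows of that length, 17.8% held at least 1 copy, 0.694% held 3 or more and 45 (0.138%) held 4 or more. The windows of Nr4a1, Nr4a2 and Nr4a3 were 74.4%, 80.0% and 63.6% GC, and the other windows were not matched for GC content. The copies lay at 233, 213, 69 and 40 bases before the start of Nr4a1, at 200, 144, 123 and 111 bases before that of Nr4a2, and at 231, 213, 205 and 147 bases before that of Nr4a3. The Nr4a3 copy at 147 bases lies in the exon that GENCODE annotates, beyond the printed stretch. The GC box GGGCGG occurred 3, 4 and 1 times (33.0% of windows held one), and TATAAA and GGAAA, the core of NFAT sites, each occurred once and in Nr4a2 alone (12.3% and 55.7% of windows). The full palindrome TGACGTCA, the AP-1 motif TGANTCA and AAAGGTCA, the element that NR4A monomers bind, were in none of the 3 windows (1.55%, 6.73% and 1.35% of windows). Both strands were searched, and CGTCA is contained in TGACGTCA. A match describes letters in these windows and says nothing about binding.

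**Figure D1:**
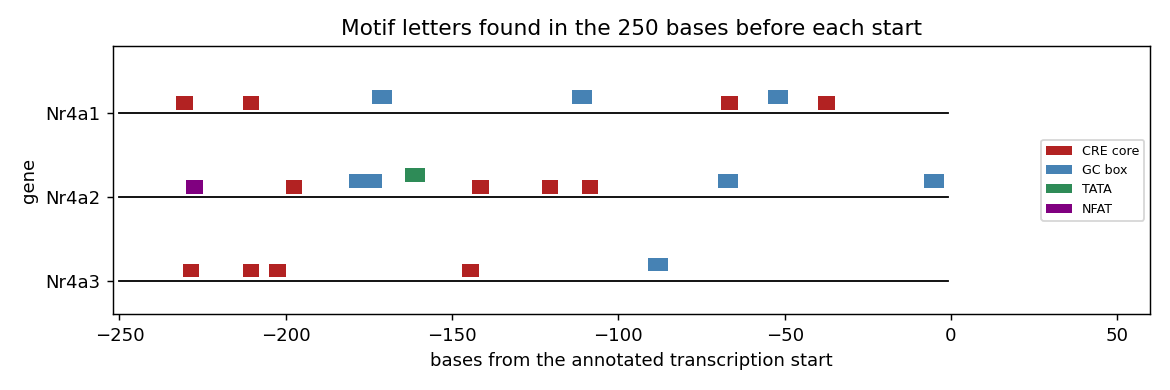
Motif letters in the 250 bases before the RefSeq start of each Nr4a gene, by distance from the start in bases. Each gene holds 4 copies of the CRE core CGTCA, and TATAAA and GGAAA appear in Nr4a2 alone.

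Barcodes were sorted into cell types by marker genes at 5 or more counts. T cells made up 7520 barcodes, of which 4006 had Cd8a or Cd8b1 without Cd4 and 996 had Cd4 alone. Melanoma cells made up 1178, macrophages 454, neutrophils 107 and dendritic cells 10. Gamma delta T cells made up 69, most of them also counted among the 7520 T cells. A further 1259 barcodes met the markers of several classes and were kept apart, and 781 met none. Dendritic cells were also taken with 2 markers in place of 3 and no T cell class, a gate chosen after seeing the data, which gave 31 barcodes. The gates used the marker genes themselves, so the sums of these genes describe the classes and do not check them. The 6 T cell genes summed to 5121 CPM (counts of a gene per 1000000 counts of those cells) in T cells, 45.8 in macrophages, 22.3 in melanoma cells and 121 in neutrophils. The 5 melanoma genes summed to 30026 CPM in melanoma cells against 134 to 238 CPM over the T cell states. Counts per barcode ran from 4142 to 892142 with a median of 26436, and the medians differed by type, from 9287 in neutrophils to 154322 in melanoma cells. Of the 11318 barcodes, 5237 had 1 clear hashtag, with a median of 12 hashtag counts per barcode: 5125 were called for the 6 hashtags of the labels and 112 for hashtags the labels do not list. A further 1858 had a second hashtag and were not called. Each hashtag with at least 20 cells of a state was used as a sample of unknown genotype to show spread. Genotypes could not be compared. The genotype mix of each T cell state is not known. Where no hashtag had enough cells of both states, a difference in Nr4a1 or Nr4a2 by state and one by genotype mix cannot be told apart. Between cell states no test was run and the differences below are sizes: at most 4 hashtags held both states of a pair, and an exact two-sided sign-flip test over 4 cannot go below p = 0.125. Intervals are exact 95% intervals that cover counting error only, and the counts are taken as reads, which are not independent molecules. In pooled levels, fewer cells with a gene and less RNA per cell cannot be told apart, which is why shares of cells are given as well.

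Over the 16 states with at least 50 cells Nr4a2 spanned 148-fold, from 14.2 CPM in melanoma cells to 2104 CPM in Havcr2+ CD8 T cells. Nr4a3 spanned 14.2-fold, from 27.2 CPM in melanoma cells to 387 CPM in T cells with Cd4, Cd8a and Cd8b1 each under 5 counts. That state had a median depth of 15425 counts, so cells with fewer reads of these genes are among it. Nr4a1 spanned 3.75-fold, from 142 CPM in melanoma cells to 533 CPM in neutrophils. Melanoma cells were thus lowest for each gene and a different state was highest for each. Among the 13 T cell states of that size the spans were 1.72-fold for Nr4a1, 9.43-fold for Nr4a2 and 4.08-fold for Nr4a3, and cycling Foxp3+ cells were lowest each time.

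**Figure D2:**
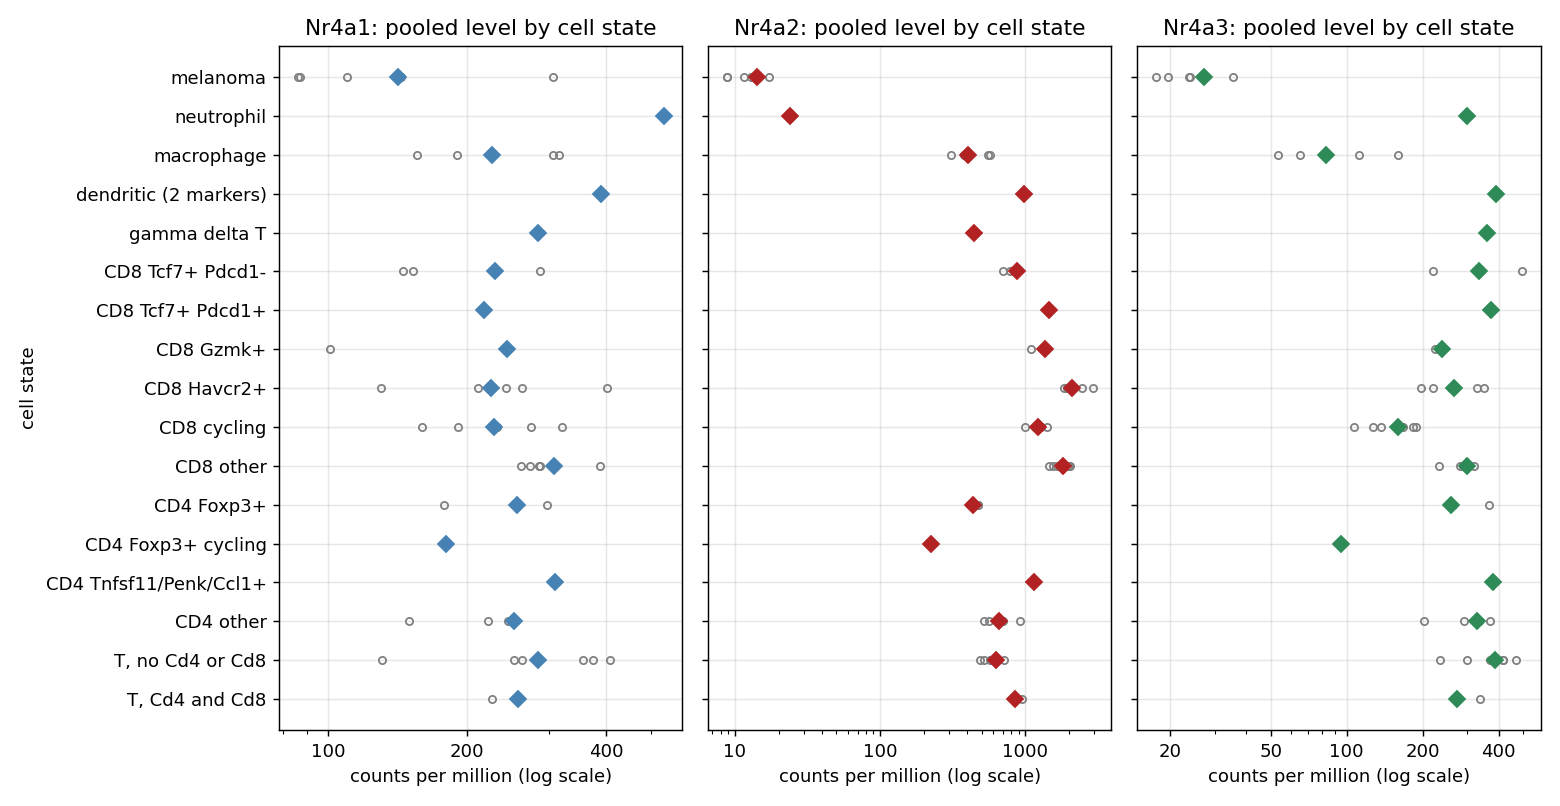
Pooled level of each Nr4a gene by cell state, in CPM on a log axis. Filled diamonds are all cells of a state and open circles are single hashtags with at least 20 cells. Nr4a2 runs from 14.2 CPM in melanoma cells to 2104 CPM in Havcr2+ CD8 cells, while Nr4a1 stays between 142 and 533 CPM.

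In T cells as a whole the 6 hashtags gave Nr4a1 levels of 217, 300, 271, 248, 247 and 271 CPM. They gave 952, 1206, 1497, 1418, 971 and 1076 CPM for Nr4a2, and 288, 279, 231, 201, 280 and 270 CPM for Nr4a3, in the same order. No hashtag lacked any of the genes. The third and the fourth hashtags were highest for Nr4a2 and lowest for Nr4a3, and the first was lowest for Nr4a1 and Nr4a2. The T cell pool held wild-type and knockout cells in shares that are not known, and 3′ reads outside a deleted stretch would still be counted, so these levels do not check the deletion.

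CD8 T cells expressed Nr4a2 in most cells. At equal depth, with each cell thinned to 10000 counts and a gene scored at 2 or more, 81.9% (80.7 to 83.1) of 3797 CD8 cells had Nr4a2, 36.9% (35.4 to 38.5) had Nr4a1 and 39.1% (37.5 to 40.6) had Nr4a3. Without thinning and at 5 or more counts the shares were 80.8%, 41.4% and 43.7%. Melanoma cells, the type lowest for Nr4a2, had it in 2.69% at equal depth. Without thinning 9.51% had it at 5 or more counts, at a median depth of 154322 counts against 29180 in CD8 cells.

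Among CD8 cells outside the cycle, Nr4a2 was higher in those with Havcr2 and no Tcf7 than in those with Tcf7 and no Havcr2. Havcr2 encodes an inhibitory receptor of terminally exhausted cells, and Tcf7 the transcription factor TCF1 of stem-like precursors. In Havcr2+ cells the 5 hashtags with enough cells gave 1932, 2937, 1836, 2451 and 2080 CPM. In Tcf7+ cells the 3 hashtags with enough cells gave 805, 876 and 1178 CPM, so that the ranges did not overlap. All 629 Havcr2+ cells together had 2104 CPM and all 576 Tcf7+ cells 997 CPM, a log2 ratio of 1.08, and it was positive in 3 of 3 hashtags (0.82 to 1.48). Of 6652 genes examined in this pair, 11.9% differed by 2-fold or more in either direction. At equal depth Nr4a2 was found in 91.3% (88.8 to 93.4) of Havcr2+ cells and 59.9% (55.6 to 64.0) of Tcf7+ cells.

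Nr4a1 and Nr4a3 did not show that contrast. Nr4a1 had 225 CPM in Havcr2+ and 228 CPM in Tcf7+ cells, a log2 ratio of -0.02 that had the opposite sign in the 3 hashtags (0.24 to 0.65). Nr4a3 had 266 against 341 CPM, a log2 ratio of -0.36, with hashtags from -0.89 to 0.48. Both were within 2-fold. Among 23 of the 25 activation-induced genes that could be examined, Tnfrsf9, encoding the costimulatory receptor 4-1BB (621 against 133 CPM), and Egr1 (345 against 153 CPM) were higher in Havcr2+ cells, while Cd69 (100 against 284 CPM) and Myc (9.88 against 21.1 CPM) were lower, and 19 were within 2-fold. Of 12 examined genes for NR4A partners and linked factors, Tox (414 against 176 CPM) and Tox2 (21.1 against 6.00 CPM), which encode regulators of the exhausted state, were higher and none was lower.

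Within Tcf7+ CD8 cells, those with Pdcd1 (PD-1) are the precursor-exhausted type and those without it resemble naive or memory cells. Nr4a2 was 1455 CPM in 91 cells with Pdcd1 and 878 CPM in 485 cells without it, a log2 ratio of 0.73 that stayed under 2-fold. Nr4a1 (217 and 230 CPM) and Nr4a3 (374 and 333 CPM) lay closer together, and no hashtag had enough cells of the first state for a spread. A difference by genotype mix and one by state cannot be told apart in this pair. In this pair 12.8% of 6724 genes passed 2-fold. At equal depth 75.6% (65.4 to 84.0) of the cells with Pdcd1 and 56.8% (52.1 to 61.4) of those without it had Nr4a2. Tox followed Pdcd1 (349 against 131 CPM), and so did Tnfrsf9 (234 against 107 CPM) and Egr3 (37.5 against 17.9 CPM), whereas Fos (94.2 against 214 CPM) and Myc were lower. Of 11 partner genes Tox was the 1 higher, and 2 were lower, Nfatc2 (18.1 against 47.1 CPM) and Rxrb (15.8 against 33.0 CPM).

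Among the remaining CD8 states Nr4a2 was 1379 CPM in Gzmk+ cells, 1218 CPM in cycling cells and 524 CPM in the 32 cells with Ly49 receptors and no Pdcd1. The 1351 CD8 cells that met none of these gates had 1830 CPM. Cells with both Tcf7 and Havcr2 fell among them unless cycling. Their hashtags ran from 1451 to 2027 CPM and overlapped those of Havcr2+ cells (1836 to 2937 CPM), so high Nr4a2 was not particular to Havcr2+ cells. Cycling cells had Nr4a3 at 160 CPM, with hashtags from 107 to 188 CPM. The CD8 cells that met no other gate had hashtags from 233 to 321 CPM, so these ranges did not overlap. In cycling cells the share with Nr4a2 at equal depth was 90.2% (88.4 to 91.8), close to that of Havcr2+ cells.

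CD4 T cells had less Nr4a2 than CD8 cells, 558 against 1441 CPM, and similar Nr4a1 (240 and 245 CPM) and Nr4a3 (264 and 222 CPM). Foxp3+ regulatory cells, cycling or not, had 310 CPM of Nr4a2 against 729 CPM in conventional CD4 cells, a log2 ratio of -1.23. The hashtags with enough cells gave 369, 262 and 248 CPM in regulatory cells and 756, 900, 524 and 574 CPM in conventional cells, so the ranges did not overlap. Nr4a3 was 162 against 334 CPM (log2 -1.04), but its 3 paired hashtags ran from -0.81 to 0.08 and none passed 2-fold. Nr4a1 was 211 against 260 CPM. The 2-fold rule took 7.01% of 6833 genes in this pair. Without cycling cells, a choice made after seeing the data, the log2 ratios were -0.86 for Nr4a2, -0.82 for Nr4a3 and -0.21 for Nr4a1, so neither call at 2-fold held. Tnfrsf9 was higher in regulatory cells (897 against 296 CPM), and Dusp2 (163 against 363 CPM), Btg2 (169 against 363 CPM), Fosb (151 against 315 CPM) and Tox2 (4.99 against 24.6 CPM) were lower.

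Regulatory cells in cycle were lowest among T cells of at least 50 cells for all 3 genes, with 180 CPM of Nr4a1, 223 CPM of Nr4a2 and 94.9 CPM of Nr4a3. Their share with Nr4a2 at equal depth, 40.0% (31.0 to 49.6), was not below that of regulatory cells outside the cycle, 34.0% (27.4 to 41.2), and the intervals overlapped. Conventional CD4 cells with at least 2 of Tnfsf11, Penk and Ccl1, an activated helper state of 60 cells, had 1141 CPM of Nr4a2 against 663 CPM in the other 623 conventional cells, with a log2 ratio of 0.29 for Nr4a1 and 379 against 327 CPM of Nr4a3. None of these passed 2-fold, where 16.4% of 6942 genes did. No hashtag had enough cells of the activated state, so state and genotype mix cannot be told apart here either. Rel (295 against 142 CPM), Myc (35.2 against 15.1 CPM) and Ier3 were the activation-induced genes that were higher there, and Zfp36 was lower. Of 13 partner genes Rxra was higher (27.0 against 9.94 CPM), and 3 were lower, the repressor Crem (128 against 394 CPM), Tox2 (10.7 against 26.9 CPM) and Rxrb (14.6 against 34.8 CPM). Gamma delta T cells had 284, 445 and 361 CPM of Nr4a1, Nr4a2 and Nr4a3.

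**Figure D3:**
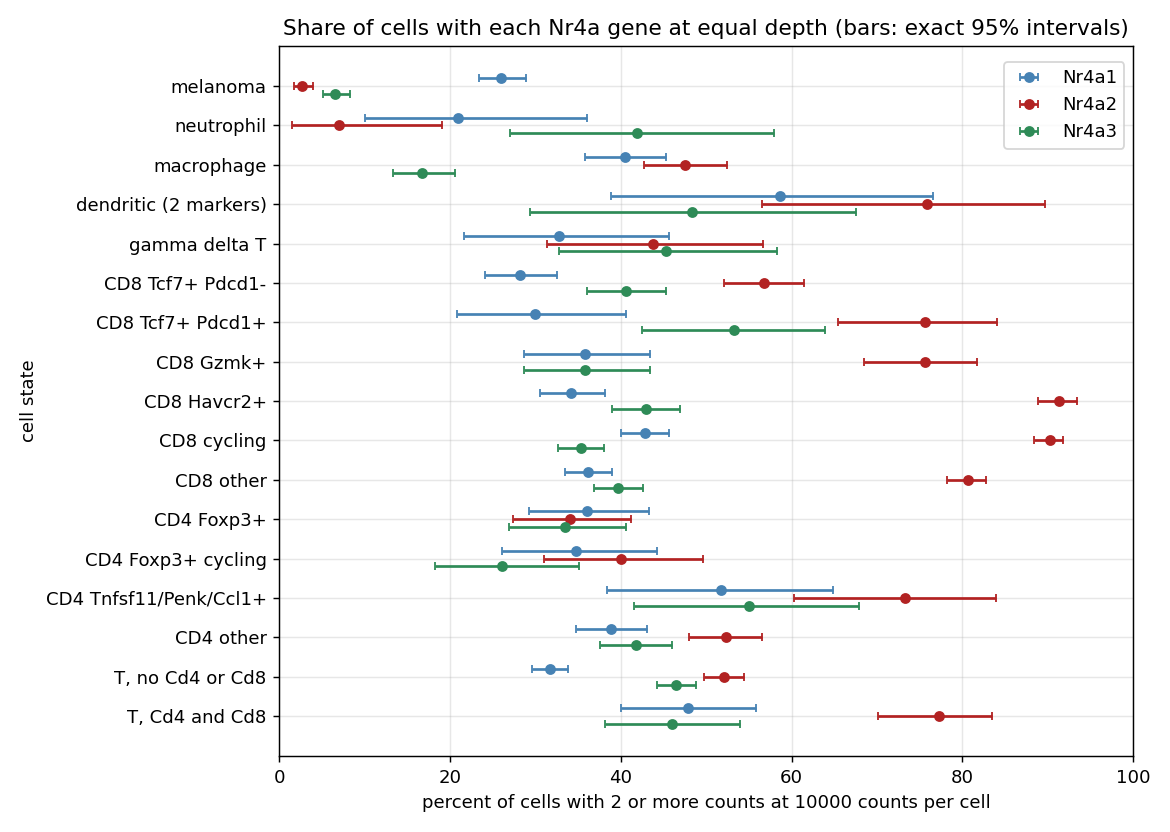
Share of cells with each Nr4a gene after thinning to 10000 counts, in percent, by cell state, with exact 95% intervals. Nr4a2 reaches 91.3% in Havcr2+ and 90.2% in cycling CD8 cells and is at 2.69% in melanoma cells, and the share with Nr4a1 runs from 28.2% to 51.7% over the T cell states.

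Macrophages had Nr4a1 at the level of T cells and less Nr4a2 and Nr4a3. The 4 hashtags gave 156 to 316 CPM of Nr4a1 with a median of 248 CPM, 575, 554 and 379 CPM of Nr4a2 in 3 of them and less in the other, and 160, 65.1, 53.3 and 112 CPM of Nr4a3. The same 2 hashtags were higher than the others for each of the 3 genes. Against CD8 cells the log2 ratio was -0.12 for Nr4a1, -1.84 for Nr4a2 and -1.43 for Nr4a3, the ratios of Nr4a2 and Nr4a3 being negative in 4 of 4 hashtags. With barcodes of 2 classes counted in both they were -0.80 and -0.67, under 2-fold. The 2-fold rule took 40.8% of 7319 genes in this pair of types, and the median of all genes was -0.27. Many activation-induced genes went the other way: 10 of 24 were higher in macrophages and 4 lower, with Ier3 (342 against 13.4 CPM), Fos (2167 against 133 CPM), Atf3 (657 against 40.8 CPM) and Zfp36 (1437 against 152 CPM) higher and Tnfrsf9, Irf4, Dusp2 and Cd69 lower. Tox (4.44 against 321 CPM), Batf, Nfatc1 and Nfatc3 were lower in macrophages, and Rxra, the receptor that pairs with NR4A1 and NR4A2, was higher (28.6 against 3.73 CPM).

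Nr4a2 was higher in T cells, so macrophage barcodes free of T cell reads were looked at alone. In the 193 macrophages with all 6 T cell genes at 0 counts Nr4a2 was 402 CPM, the same as in all 454, and Nr4a1 and Nr4a3 were 194 and 84.5 CPM. In the 797 barcodes with both macrophage and T cell genes, where T cell genes summed to 2717 CPM, Nr4a2 was 771 CPM and Nr4a3 128 CPM. At equal depth 47.5% (42.7 to 52.4) of macrophages and 45.7% (38.2 to 53.4) of those without T cell reads had Nr4a2.

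Neutrophils had the highest Nr4a1 of the states, 533 CPM, together with 300 CPM of Nr4a3 and only 24.1 CPM of Nr4a2 (26 counts over 107 cells, in 9 of which it was found at all). Against macrophages the log2 ratios were 1.24, 1.86 and -4.06, each past 2-fold, in a pair where 70.5% of 6628 genes passed and the median of all genes was -1.29. Without the quality filter Nr4a1 was 0.61, and with barcodes of 2 classes counted in both the ratios were 0.85, 0.74 and -1.04, so that of these calls only that of Nr4a2 was past 2-fold in both settings. Among 22 activation-induced genes 12 were higher and 3 lower, with Nfkbia (9234 against 1079 CPM), Gadd45b (2944 against 356 CPM) and Egr3 (169 against 25.5 CPM) furthest up. At equal depth 43 neutrophils remained, 9 with Nr4a1, 3 with Nr4a2 and 18 with Nr4a3 (41.9%, 27.0 to 57.9). The share with Nr4a1, 20.9% (9 of 43), was not higher than the 40.5% (35.8 to 45.3) of macrophages. The 25 neutrophils with 5 or more Nr4a1 counts had a median of 1731 CPM against 351 CPM in the 216 such macrophages. In shallower cells 5 counts make a higher CPM, and the median depth was 9287 counts in neutrophils and 46590 in macrophages. Depth and level per cell thus cannot be told apart in these medians.

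Barcodes with dendritic markers alone had more Nr4a3 and Nr4a2 than macrophages, which did not hold for Nr4a2 under another treatment of mixed barcodes. The 10 barcodes with 3 markers had 426, 1324 and 585 CPM of Nr4a1, Nr4a2 and Nr4a3, log2 ratios to macrophages of 0.92, 1.72 and 2.82, and 51.4% of 7052 genes passed 2-fold. A single barcode held 57.0% of their Nr4a2 counts, and without the 1% of cells with the most Nr4a2 counts on each side, that barcode among them, the ratio was 0.94, under 2-fold. With barcodes of 2 classes counted in both, the ratio of Nr4a2 was -1.76 and that of Nr4a3 0.35. At least 1 of the 9 dendritic genes reached 5 counts in 64.2% of melanoma cells, 13.9% of macrophages and 3.56% of T cells. The part of such barcodes in that change was not tested. The 31 barcodes with 2 or more markers, which include these 10, had 390 CPM of Nr4a1 and 984 CPM of Nr4a2. Their log2 ratios for the 3 genes were 0.79, 1.29 and 2.25, where 34.9% of 7129 genes passed. A single barcode held 27.7% of the Nr4a2 counts of the 31. In these 31 barcodes the T cell genes summed to 67.5 CPM, the macrophage genes to 139 CPM (1 or more at 5 counts in 25.8% of them) and 3 endothelial genes to 220 CPM (16.1%), against 17.5, 10.5 and 1.75 CPM in the 10 barcodes, and the part of these cells in the levels was not tested. Of 22 activation-induced genes in the 10 barcodes, 2 were higher than in macrophages, Egr3 (424 against 25.5 CPM) and Rel (461 against 124 CPM), and 13 were lower, among them Egr1, Fos and Jun. In the 31 barcodes 5 of 24 were higher and 8 lower. Irf4 was among the 5 (85.8 against 10.1 CPM) but had no count in the 10 barcodes.

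In melanoma cells Nr4a1 was the highest of the 3 genes, although each gene was at its lowest there among the 16 states with at least 50 cells. Nr4a1 was 144, 110, 87.0 and 86.0 CPM in 4 of the 5 hashtags with enough cells, Nr4a2 8.76 to 17.1 CPM with a median of 11.5 CPM, and Nr4a3 24.0, 19.6, 35.5, 17.5 and 23.7 CPM. The fifth hashtag, with 30 cells, had more Nr4a1 than these 4, within the range of macrophages, and the highest Nr4a3. Against macrophages the log2 ratio was -0.67 for Nr4a1, -4.83 for Nr4a2 and -1.60 for Nr4a3, and 52.2% of 7750 genes passed 2-fold. In the 3 hashtags with both types the Nr4a1 ratio ran lower than the pooled one, from -1.83 to -1.13, each past 2-fold. At equal depth 26.0% (23.4 to 28.9) of melanoma cells had Nr4a1, 2.69% (1.78 to 3.90) Nr4a2 and 6.59% (5.13 to 8.30) Nr4a3. Of 23 activation-induced genes 21 were lower than in macrophages and 1, Myc, was higher (47.5 against 19.8 CPM). In the 254 barcodes with melanoma and T cell genes Nr4a2 was 518 CPM.

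Ordered by level, few neighbouring states could be told apart. For Nr4a1 the hashtag ranges overlapped in all 5 neighbouring pairs where both states had a range, and for Nr4a2 in all 3. For Nr4a3 they overlapped in 3, and macrophages (53.3 to 160 CPM) stood apart from melanoma cells (17.5 to 35.5 CPM). The other neighbours had no spread for 1 or both states.

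The 3 genes were found together in the same cells more often than their single shares would give. At equal depth, 76.1% (74.3 to 77.7) of T cells with Nr4a1 also had Nr4a2, against 64.6% (63.2 to 66.0) of T cells without it, a difference of 11.5 percentage points. Nr4a3 was found in 49.3% of T cells with Nr4a1 and 36.8% of those without, and in 45.0% of T cells with Nr4a2 and 33.3% of those without. All 3 were found in 14.2% (13.4 to 15.0) of T cells, where the product of the shares is 10.2%, and none in 15.8% (15.0 to 16.7), where the product is 11.8%. Cells with a gene also had somewhat more genes in all (medians of 1780 with and 1659 without Nr4a1, and 1816 with and 1500 without Nr4a2). Within 3 bins of genes per cell the differences were 9.48 points for Nr4a1 and Nr4a2, 12.8 for Nr4a1 and Nr4a3 and 12.9 for Nr4a2 and Nr4a3. Wild-type and knockout cells were pooled, so a tie between Nr4a1 and Nr4a2 in T cells from the genotype and one from joint expression cannot be told apart.

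In the 12 states with 100 or more cells the difference was positive for each pair, from 3.20 to 29.5 points for Nr4a1 and Nr4a2, 6.00 to 24.4 for Nr4a1 and Nr4a3, and 10.4 to 29.0 for Nr4a2 and Nr4a3. The intervals were apart in 7, 7 and 8 of the 12 and overlapped in the others. In all 12, cells with all 3 genes and cells with none were more frequent than the product of the shares. The smallest value was in Havcr2+ CD8 cells, where 93.4% (89.2 to 96.3) with and 90.2% (86.9 to 92.9) without Nr4a1 had Nr4a2, and the largest in macrophages, where 65.1% (57.5 to 72.2) with and 35.6% (29.7 to 41.8) without Nr4a1 had Nr4a2. Macrophages with all 3 genes made up 7.06% (4.81 to 9.92), against a product of 3.21%. In Tcf7+ Pdcd1+ CD8 cells, 77.8% with and 42.9% without Nr4a1 had Nr4a3, in 90 cells. Melanoma cells with Nr4a1 had Nr4a3 in 13.0% (9.19 to 17.7) and those without it in 4.32% (2.97 to 6.04). Some small states had negative differences, all with overlapping intervals: gamma delta T cells for Nr4a1 with each of the others, neutrophils and Ly49+ CD8 cells for Nr4a3 with each of the others, and activated CD4 helpers for Nr4a2 and Nr4a3 (-18.8 points).

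**Figure D4:**
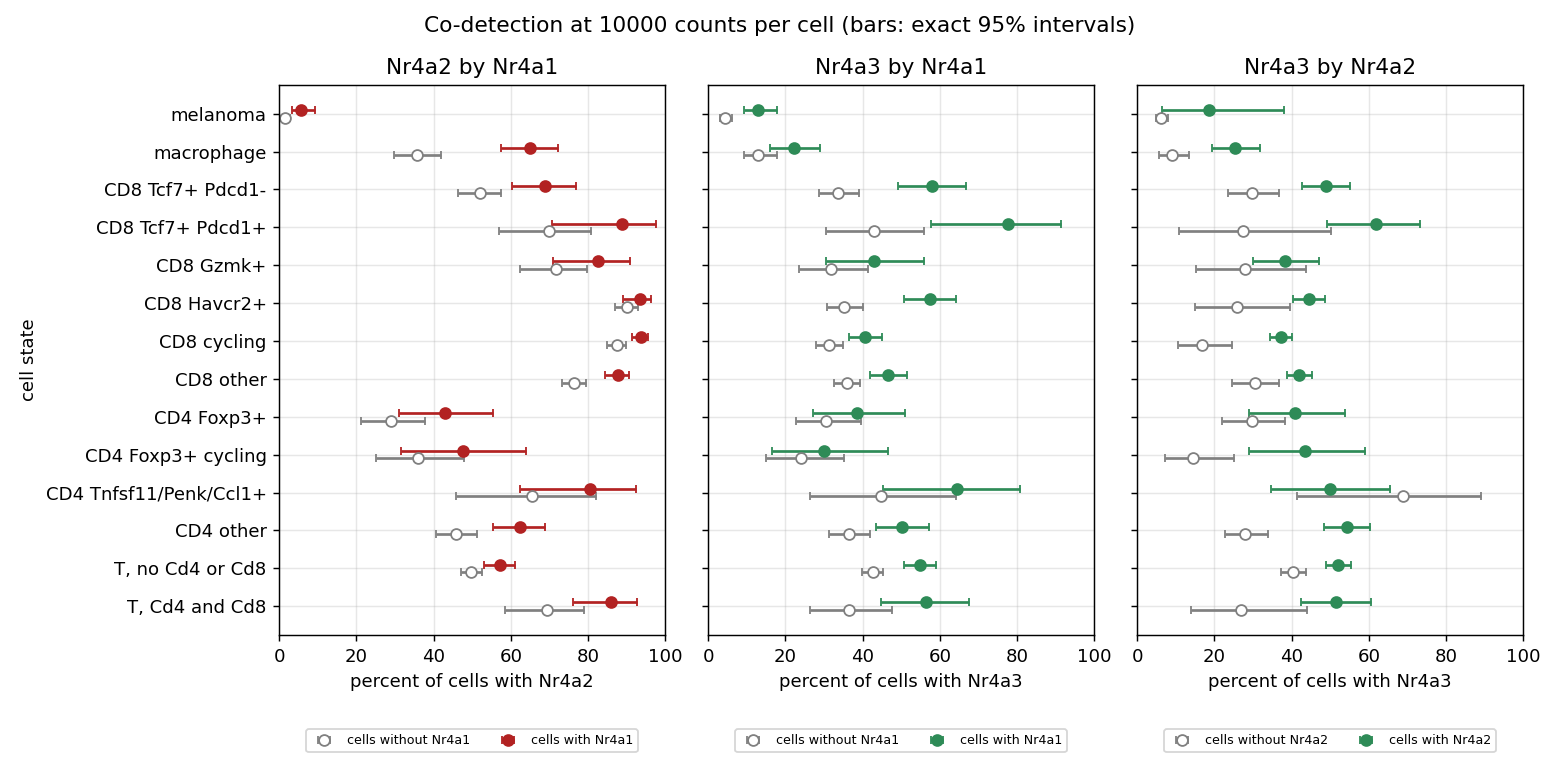
Share of cells with the second Nr4a gene among cells with (filled) and without (open) the first, in percent after thinning to 10000 counts, with exact 95% intervals. The gap is 29.5 points in macrophages for Nr4a2 by Nr4a1 and 3.20 points in Havcr2+ CD8 cells.

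Cells with an Nr4a gene were next compared with cells of the same type without it for 25 activation-induced genes, at equal depth, over the genes scored in at least 5% of the cells of that type. Wild-type and knockout T cells were pooled, so in CD8 cells a difference by Nr4a gene and one by genotype cannot be told apart. In CD8 cells with Nr4a1, 17 of 21 such genes were in a higher share with intervals apart and none in a lower share, against 5.60% of 5661 genes. The median difference was 7.53 points, against 0.297 over all genes. Gadd45b, a stress-induced signalling protein, was in 50.9% of CD8 cells with and 35.5% without Nr4a1, Fosb, an AP-1 subunit, in 36.0% and 22.1%, Nfkbia, the NF-kB inhibitor, in 81.2% and 67.3%, and Egr1 in 47.4% and 36.3%. None of 11 partner and linked factor genes, Tox among them, had intervals apart. In CD8 cells with Nr4a3, 12 of 21 were higher and none lower, against 3.90% of genes, with Fosl2 (60.8% and 48.7%) furthest apart, and of the partner genes Crem (54.6% and 47.7%), Tox (47.7% and 41.9%) and Nfatc3 (30.3% and 25.1%) were higher.

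CD8 cells with Nr4a2 had another profile. Of the 21 genes 11 were higher and 1 lower, where 28.4% of all genes were higher. CD8 cells with Nr4a2 had more genes in all, a median of 1932 against 1546, and the part of gene number in these differences was not tested. Nr4a2 was in 91.3% of Havcr2+ and 59.9% of Tcf7+ CD8 cells, so cells with and without it also differed in their mix of states. Tnfrsf9 and Tox were higher and Cd69 lower in Havcr2+ than in Tcf7+ cells, and the part of state was not tested. The part of genotype could not be tested. Tnfrsf9 was in 57.1% (55.3 to 58.8) of CD8 cells with Nr4a2 and 27.1% (23.8 to 30.6) of those without, and Cd69, an early activation and tissue retention receptor, in 20.5% (19.1 to 22.0) and 30.8% (27.3 to 34.4). Tox was in 49.4% and 20.1%, Crem in 53.9% and 34.5%, and Nfatc1, an NFAT factor, in 48.6% and 31.8%. Batf was higher too (21.6% and 13.6%). With Nr4a1, by contrast, Cd69 was in a higher share of CD8 cells (26.5%, 6.46 points more than without).

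In melanoma cells with Nr4a1, 15 of 16 activation-induced genes were in a higher share and none lower, against 3.49% of 5561 genes, with a median difference of 23.0 points. Fos was in 73.6% (67.8 to 78.8) of melanoma cells with and 37.1% (33.6 to 40.7) without Nr4a1, Nfkbia in 47.5% and 15.1%, Egr1 in 41.0% and 10.3%, and Fosb in 40.2% and 9.85%. The 66 melanoma cells with Nr4a3 had 13 of 16 higher (2.07% of genes), and the 27 with Nr4a2 had 7 of 16 higher (0.899% of 5562 genes), Atf3 furthest, in 48.1% and 14.1%. In macrophages few genes had intervals apart: Fosb (80.2% and 60.1%) and Nfkbia (87.2% and 75.9%) with Nr4a1, 2 of 22 where 1.09% of 5697 genes were higher. Intervals are wider with fewer cells: 172 macrophages had Nr4a1 and 253 did not, against 1402 and 2395 CD8 cells. The median difference in macrophages was 5.59 points with Nr4a1 (-0.0666 over all genes), 2.29 with Nr4a2 (0.297) and 0.0617 with Nr4a3 (0.263). Fosl2 (57.4% and 31.8%) and Gadd45b (65.3% and 46.6%) were higher with Nr4a2 (1.79% of genes), as was the partner gene Mef2d, and Rel (47.9% and 25.1%) with Nr4a3 (0.913% of genes).

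**Figure D5:**
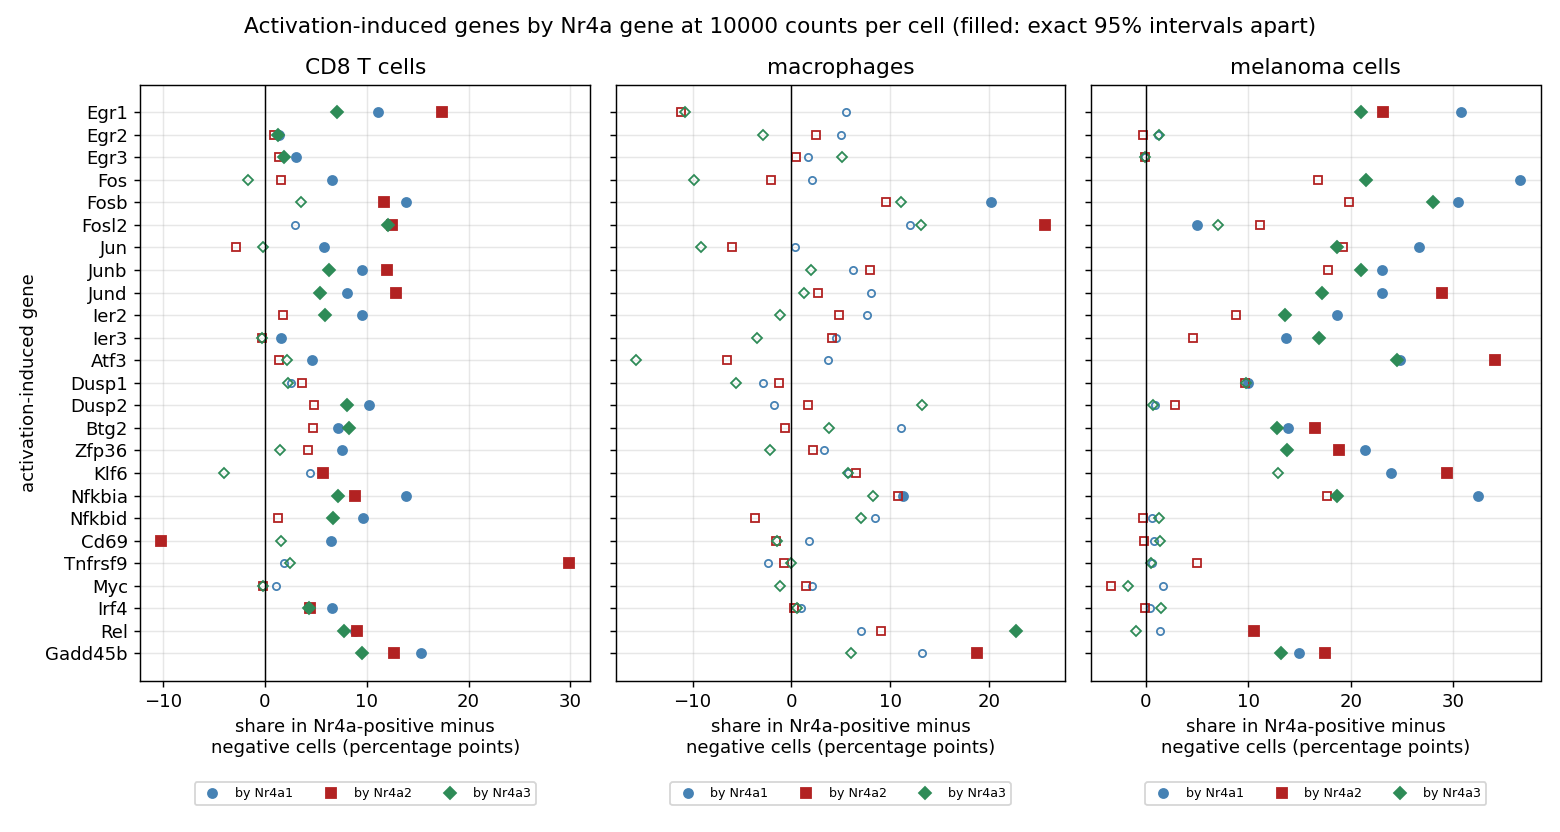
Difference in the share of cells with each of 25 activation-induced genes between cells with and without an Nr4a gene, in percentage points after thinning to 10000 counts. Filled symbols have exact 95% intervals apart. In melanoma cells Fos stands 36.5 points higher with Nr4a1, and in CD8 cells Tnfrsf9 stands 29.9 points higher and Cd69 10.2 points lower with Nr4a2.

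Over the 16 states, the genes whose log2 level followed each Nr4a gene most closely were, among 6506 genes with a mean of at least 20 CPM, Gadd45b (Pearson r 0.93), Plk3 (0.92), Nfkbia, Dopey2 and Ier5 (each 0.90) for Nr4a1. For Nr4a2 they were Rps15a-ps6 (0.97), Ms4a6b (0.96), B4galnt1, Lrmp and AW112010 (each 0.95), and for Nr4a3 LOC108169200 (0.96), Zbtb8b (0.95), Hivep2, Wac and Dnaja1 (each 0.94). Rps15a-ps6 is named as a processed copy of a ribosomal protein gene, whose reads can be shared with near-identical copies. Among themselves the 3 genes followed each other less: r was 0.01 for Nr4a1 and Nr4a2, 0.66 for Nr4a1 and Nr4a3 and 0.60 for Nr4a2 and Nr4a3. Over the 13 T cell states alone these were 0.26, 0.70 and 0.39, and the listed neighbours of Nr4a1 were also less close, such as Nfkbia at 0.56 and Dopey2 at 0.53. These values describe states of 1 library, which share depth and free RNA.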

How the data were processed

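One pooled mRNA library and its hashtag library were analysed. The deposited values are whole-number counts of genes, or of hashtags, per cell barcode. The submitters' processing notes name GRCm38 and, with no role, R 3.5.3, cutadapt 2.10 and Bowtie2 (2.3.4.1, also 2.4.2). Whether molecular identifiers were collapsed is not stated in these sources. The median non-zero count was 7 and 56.1% of non-zero counts were above 5, so counts were treated as reads. The members and gene lists were chosen with earlier results of these data known.

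Barcodes with under 500 genes (279) or over 25% of counts from 37 mitochondrial genes (675) were removed. Cell classes needed 3 markers (T cells 2) at 5 or more counts. Levels are pooled CPM. A pair of states was called at 2-fold, among genes with 20 CPM or more in either state and 100 or more counts over both, with 3 counts as the floor. Equal depth means thinning without replacement to 10000 counts and scoring at 2. Named genes were the 3 members, genes of the activation-induced list (25) and the partner list (14) past 2-fold or with intervals apart, up to 6 a direction, and the 5 genes closest to each member by Pearson r of log2(CPM + 1). Barcodes of several classes were kept apart as possible doublets, and no doublet caller was run. A hashtag was called when its log likelihood exceeded that of background and of the next hashtag by 3 or more and no second hashtag added as much. Of 12016 barcodes, 11808 were also in the hashtag table. A gene of the partner list is not reported here. The calls and thinning were checked on simulated data. Python 3.11.15 was used with numpy 2.4.6, pandas 2.3.3 and scipy 1.17.1.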

Additional observations from a re-analysis of the deposited data

Results flagged for a closer look

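The 781 barcodes that met the markers of no cell class belong to no comparison above, and each Nr4a gene was present in them. Nr4a1 was 399 CPM, Nr4a2 634 CPM and Nr4a3 323 CPM. Their median depth was 9678 counts, and 58.3% of them had at least 1 T cell gene at 5 or more counts.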

How the results depend on the processing

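With barcodes that met the markers of 2 classes counted in both classes, the log2 ratio of dendritic cells to macrophages reversed for Nr4a2 to -1.76 and was 0.17 for Nr4a1 and 0.35 for Nr4a3. Macrophages against CD8 cells then gave -0.80 for Nr4a2 and -0.67 for Nr4a3, no longer past 2-fold, and neutrophils against macrophages 0.85, -1.04 and 0.74 for Nr4a1, Nr4a2 and Nr4a3. Melanoma cells against macrophages gave -2.26 for Nr4a2, activated against other CD4 helpers 0.10, 0.67 and -0.05, and Tcf7+ CD8 cells with against without Pdcd1 0.01 for Nr4a3. The cause was not tested.

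With markers at 10 counts, Nr4a2 was 0.53 for Pdcd1 in Tcf7+ cells and -1.35 for regulatory against conventional cells, activated helpers gave 0.41, 0.71 and 0.45, and dendritic cells 1.36 for Nr4a1 and 2.07 for Nr4a2. With markers at 3 counts, Nr4a1 was 0.38 for Pdcd1 in Tcf7+ cells and 0.67 in dendritic cells, and Nr4a3 was 1.67 in neutrophils. As the mean of single-cell values, Nr4a1 was -0.31 for Pdcd1 in Tcf7+ cells and 0.17 in activated helpers, dendritic cells gave 0.73, 1.20 and 2.33, Nr4a2 was -1.07 in regulatory and -4.02 in melanoma cells, and Nr4a3 was 1.30 in neutrophils. Without the quality filter neutrophils gave 0.61 for Nr4a1 and 1.24 for Nr4a3. Without the 1% of cells with the most counts of a gene, dendritic cells gave 0.67, 0.94 and 2.65, and Nr4a2 was 0.79 for Pdcd1 in Tcf7+ cells and -4.71 in neutrophils. Of the alternatives chosen after seeing the data, dendritic barcodes with 2 markers gave 1.29 for Nr4a2 and 2.25 for Nr4a3, macrophages with all T cell genes at 0 gave Nr4a1 ratios of 1.13 for dendritic cells and 1.46 for neutrophils, and leaving out cycling cells gave -0.86 for Nr4a2 in regulatory cells.

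Co-detection stayed positive in T cells and macrophages at every depth tried. At 20000 counts per cell it was 21.8 points for Nr4a2 and Nr4a3 in T cells and 18.5 for Nr4a1 and Nr4a3 in macrophages. At 5000 counts it was 8.82 for Nr4a1 and Nr4a2 and 6.37 for Nr4a2 and Nr4a3 in T cells, and 19.6 for Nr4a1 and Nr4a2 in macrophages. Scored at 1 count or at 3, Nr4a2 and Nr4a3 in T cells gave 16.2 and 8.80. The correlation of Nr4a1 and Nr4a2 over states was -0.01 with a pseudocount of 10 and 0.26 over T cell states alone, where that of Nr4a2 and Nr4a3 was 0.39. Cell states were paired within hashtags as ranges of ratios, with no test. Genotypes could not be paired, since the hashtags carry none in the sources used here. Neutrophils and dendritic cells were few, and no hashtag held 20 of either.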
